A study of Mus musculus with 10 samples.

Results

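Splenic B lymphocytes of C57BL/6 mice, an inbred laboratory strain, that divided again in a second culture phase (div12_48_d, n = 2 libraries) were set against the divided cells of the first phase (div12, n = 2) from which the second culture was started. The 4 libraries were taken by their labels from the 10 of the series, and the comparison covers every gene of the deposited table, with 6610 symbols; the low-value filter left 4427 of them for testing. For div12_48_d, a pulse of 48 h with antibodies that bind CD40, a receptor for T cell help, and the IgM antigen receptor had activated the cells; the divided ones then spent 48 h more with anti-CD40 at 0.12 µg/ml and were sorted by FACS for renewed division. The div12 cells were taken after the first 48 h as divided cells. A further pair of groups had not divided in its own phase. These were cells of the second culture that had not divided again (div12_48_u, n = 2) and activated cells of the first phase that had not divided (div0, n = 2). Both are called undivided below, but the div12_48_u cells had divided in the first phase. Their difference from div0 cells therefore mixes phase with earlier division. The last group, naive (n = 2), was not activated. Every group but naive thus received both antibodies, and the second phase, which the labels call mitogen-independent, still contained anti-CD40. Phase I replicates were independent pools of 4 to 5 mice; whether Phase II replicates were pools, and how many divisions a cell had made, is not given in the labels. RNA came from 500000 cells per Phase II sample and 1000000 per Phase I sample. Culture phase, time in culture, antibody stimulus, cell input and any batch therefore cannot be told apart.

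A B cell that receives a signal through its antigen receptor and through CD40 leaves quiescence, grows and divides several times. Cell division needs genes of the G1/S transition and DNA replication, many of them under E2F transcription factors, and later genes of mitosis such as the chromosomal passenger complex, to which survivin (Birc5) belongs. Divided B cells can return to rest, go on dividing, or begin to turn into antibody-secreting plasma cells under the transcription factor Blimp-1 (Prdm1). The series' title concerns survivin in the G1 phase after mitosis. Values below are in TPM, a transcript abundance with an equal total in every library, and are given as replicate 1 and replicate 2 of each group. Changes are differences of log2(TPM + 1) with the standard error of limma, which understate the change of genes with low values. A gene rose or fell, in what follows, if limma's Benjamini-Hochberg adjusted p over the 4427 genes was under 0.05, two-sided. Sequencing depth is unknown, since TPM keeps no counts.

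The B cell genes Cd79a and Cd79b were abundant in both groups. Cd79a, a signalling chain of the antigen receptor, had 6746 and 7608 TPM in div12_48_d cells and 6235 and 6684 TPM in div12 cells. Cd79b, its partner chain, had 3479 and 4318 TPM in div12_48_d cells and 3224 and 3726 TPM in div12 cells. Between replicates, 55 genes were more than 2-fold apart in the div12_48_d libraries and 33 in the div12 libraries. Among markers of other cell types, Cd3e, Cd4, Cd8a and Thy1 of T cells and Csf1r, C1qa and Cd14 of macrophages were under 1 TPM in all 4 libraries, and C1qa was listed at 0. The 9 listed T cell markers nonetheless summed to 576 and 727 TPM in div12_48_d cells and to 259 and 268 TPM in div12 cells. Of the 9, 3 rose, beside 11.9% of all tested genes. Those 3 were Lck, a Src family kinase, Cd28 and Cd27, which B-lineage cells can also express. The 18 listed macrophage and dendritic markers summed to 1320 and 1530 TPM in div12_48_d cells and to 1056 and 1088 TPM in div12 cells. Of the 18, Hmox1 and Adgre1 rose and Flt3 fell, shares near the 11.9% and 4.09% of all tested genes. The adjusted p of Hmox1 was 0.0108 with all libraries and 0.0516 without div12_48_d replicate 1, 0.0698 without div12_48_d replicate 2 and 0.0771 without div12 replicate 2, and that of Adgre1 was 0.00992 with all libraries and 0.0857 without div12_48_d replicate 2 and 0.0595 without div12 replicate 1. None of the 5 tested NK, 7 neutrophil, 6 erythroid and 3 platelet markers passed the test (0, 2, 0 and 2 of them had an unadjusted p under 0.05, and all 4 were lower in div12_48_d cells).

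Limma called 706 of 4427 genes (15.9%), with 525 higher (11.9%) and 181 lower (4.09%) in div12_48_d cells. The 4 libraries of a called gene never overlapped between the groups, which is also true of 61.2% of all tested genes. A change of at least 2-fold was reached by 204 of the higher and 40 of the lower genes. The median change over all tested genes was 0.08, over the called higher genes 0.84 and over the called lower genes -0.67. The balance of directions depended on scaling: 74.4% of calls were higher as reported, 54.5% with median-ratio scaling (451 higher, 376 lower) and 51.2% after quantile normalization (382 higher, 364 lower), which shifted the median change by -0.12. Leaving out div12_48_d replicate 2 left 227 calls and leaving out div12 replicate 2 left 301, against 489 without div12_48_d replicate 1 and 446 without div12 replicate 1.

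**Figure D1:**
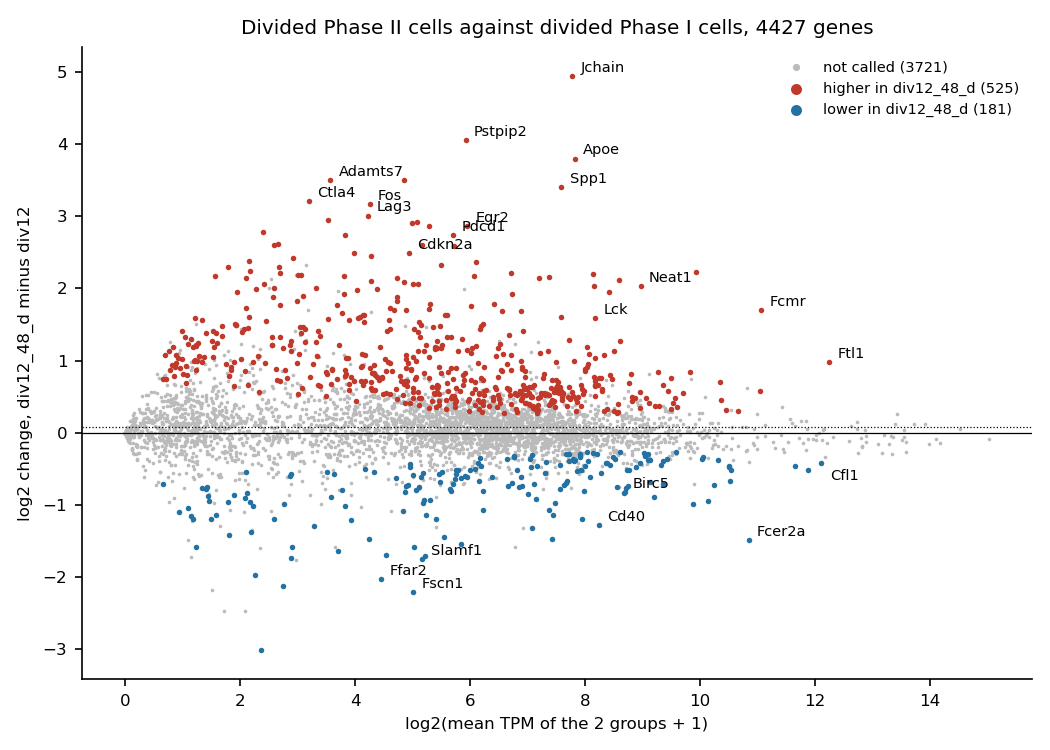
Change between divided Phase II and divided Phase I cells (vertical axis, log2, div12_48_d minus div12) against mean level (horizontal axis, log2 of the mean TPM of both groups + 1) for the 4427 tested genes, 1 point per gene. Red points are the 525 genes called higher and blue points the 181 called lower; the dotted line is the median change of 0.08, and Jchain lies highest at 4.94.

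The largest rise was that of Jchain (chromosome 5, 88519809 to 88527897, GRCm38.p6), which encodes the chain that joins IgM and IgA into polymers in antibody-secreting cells. Jchain had 378 and 464 TPM in div12_48_d cells, against 8.10 and 19.5 TPM in div12 cells. Both div12_48_d libraries lay far above both div12 libraries, and the difference was 4.94 ± 0.43 (adjusted p = 4.80e-04). In bulk RNA, here and below, a change in how many cells express a gene and a change in RNA per cell cannot be told apart. Pstpip2, an adaptor protein of the cell cortex known for its loss in inflammatory mouse mutants, had 92.8 and 135 TPM in div12_48_d cells, against 6.01 and 5.58 TPM in div12 cells (4.05 ± 0.34, adjusted p = 4.46e-04). Apoe, which encodes apolipoprotein E, had 258 and 586 TPM in div12_48_d cells and 25.5 and 28.7 TPM in div12 cells (3.80 ± 0.38). The Apoe replicates of div12_48_d were themselves more than 2-fold apart, a gap smaller than the one between groups. Spp1, the gene of the secreted protein osteopontin, had 418 and 284 TPM in div12_48_d cells and 25.5 and 39.0 TPM in div12 cells (3.41 ± 0.31). The metalloprotease gene Adamts7 rose by 3.50 ± 0.29, to 24.2 and 17.4 TPM in div12_48_d cells, against 0.947 and 0.862 TPM in div12 cells. Actn1, the gene of an actin crosslinker, rose by 3.50 ± 0.46, and the carboxylesterase gene Ces2c by 2.94 ± 0.36. Gpr55, a receptor for lysophosphatidylinositol, rose by 2.91 ± 0.24 and had 52.6 and 64.2 TPM in div12_48_d cells, against 5.77 and 8.12 TPM in div12 cells. The calls of these 8 genes held with each of the 4 libraries left out in turn.

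Among genes that averaged 10 TPM or more in the higher group, the falls were smaller than the rises. Fscn1, the gene of the actin-bundling protein fascin, had 14.9 and 6.79 TPM in div12_48_d cells, against 63.4 and 40.4 TPM in div12 cells. It fell by 2.21 ± 0.37 (adjusted p = 0.00622, and 0.0593 with only the groups compared). Ffar2, a receptor for short-chain fatty acids, fell by 2.03 ± 0.31, to 10.7 and 5.21 TPM in div12_48_d cells, against 33.4 and 34.1 TPM in div12 cells. Adipoq, known as the gene of the fat cell hormone adiponectin, was low throughout and fell by 1.64 ± 0.23, to 6.43 and 4.34 TPM in div12_48_d cells, against 17.97 and 19.4 TPM in div12 cells. Carmil3, which encodes a regulator of actin capping protein, fell by 1.71 ± 0.29 and Gh, the growth hormone gene, fell by 1.47 ± 0.27. Ache, the gene of acetylcholinesterase, fell by 1.69 ± 0.41, and Il15, the gene of a lymphocyte cytokine, fell by 1.58 ± 0.34. These last 4 calls were lost without div12_48_d replicate 2, with an adjusted p of 0.0617 for Carmil3, 0.0645 for Gh, 0.183 for Ache and 0.134 for Il15. Ache and Il15 also lost it without div12 replicate 1 (0.111 and 0.0639) or replicate 2 (0.1 and 0.1). In absolute amount the deepest falls belonged to abundant genes: Fcer2a, described below, Tuba1b, which encodes an alpha-tubulin, and the actin-binding Cfl1 and Tmsb10. Tuba1b had 3238 and 2923 TPM in div12_48_d cells and 4756 and 4102 TPM in div12 cells, a change of -0.52 ± 0.12 whose adjusted p was 0.0248 with all libraries and 0.0517 without div12_48_d replicate 1, 0.171 without div12_48_d replicate 2 and 0.112 without div12 replicate 1. Tmsb10 fell by 0.47 ± 0.08, with an adjusted p of 0.00582 with all libraries and 0.0513 without div12_48_d replicate 2. Cfp, which encodes the complement factor properdin, had 858 and 692 TPM in div12_48_d cells and 1389 and 1574 TPM in div12 cells (-0.94 ± 0.27, adjusted p = 0.0485); leaving out any of the 4 libraries ended the call, with an adjusted p of 0.0844 without div12_48_d replicate 1, 0.275 without div12_48_d replicate 2, 0.11 without div12 replicate 1 and 0.209 without div12 replicate 2.

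**Figure D2:**
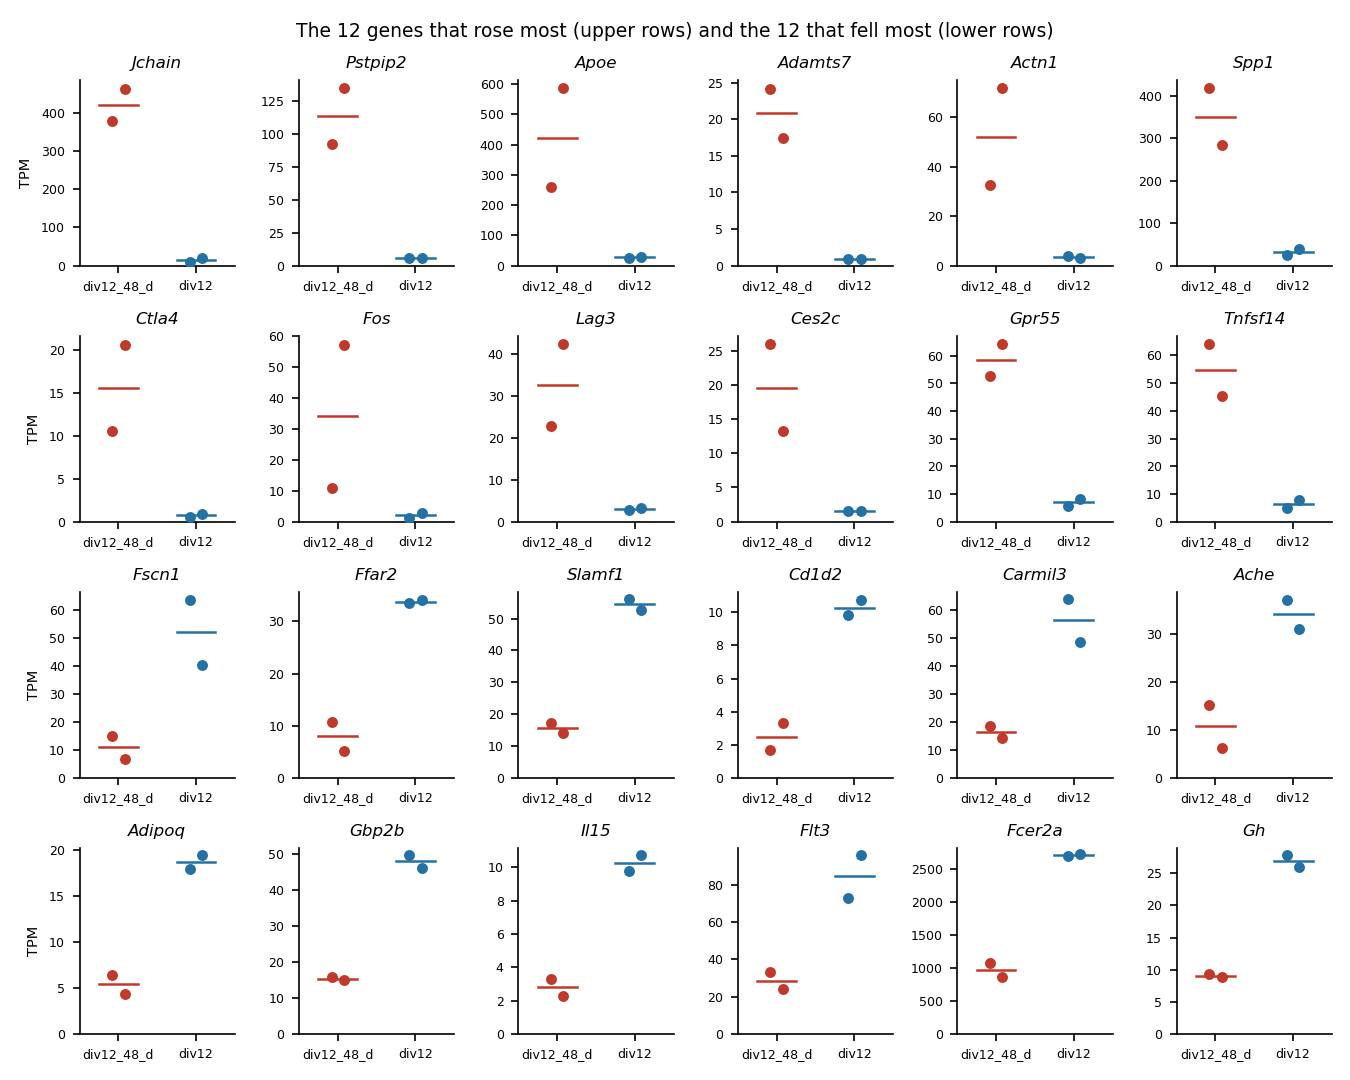
TPM of the 12 genes with the largest rise (upper rows) and the 12 with the largest fall (lower rows) among called genes whose higher group averaged 10 TPM or more; red points are the 2 div12_48_d libraries, blue points the 2 div12 libraries, and lines their means. In each of the 24 panels the points of one group all lie above those of the other, as the choice of these genes required.

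Some genes of cell division were lower in div12_48_d cells than in div12 cells, although the labels give both groups as divided. Birc5 (chromosome 11, 117849237 to 117855743) had 317 and 272 TPM in div12_48_d cells, against 540.0 and 505 TPM in div12 cells. Both div12_48_d values lay under both div12 values, and the change was -0.83 ± 0.15 (adjusted p = 0.00826; 0.074 without div12_48_d replicate 2). Aurkb, the kinase of the same complex, had 149.8 and 158 TPM in div12_48_d cells and 242 and 166 TPM in div12 cells and did not pass the test (-0.38 ± 0.24, adjusted p = 0.324). Of 29 tested genes of G1/S and DNA replication, 10 fell and 0 rose, where 4.09% of all tested genes fell, with a list median of -0.39 beside 0.08 for all tested genes, and 28 of the 29 had a negative change. The falls numbered 20 with median-ratio scaling, 14 after quantile normalization and 2 with only the groups compared. Gmnn, the gene of geminin, which blocks relicensing of origins, had 168 and 151 TPM in div12_48_d cells, against 260.2 and 244 TPM in div12 cells, and fell by 0.66 ± 0.10 (adjusted p = 0.00362). Uhrf1, which couples replication to DNA methylation, fell by 0.74 ± 0.19, Gins2 of the replicative helicase fell by 0.62 ± 0.12 and the DNA ligase gene Lig1 fell by 0.61 ± 0.16. The others that fell were the helicase subunit genes Mcm5 (-0.52 ± 0.13) and Mcm7 (-0.48 ± 0.10), the origin recognition gene Orc6, the histone mRNA-binding gene Slbp, the flap nuclease gene Fen1 and the sliding clamp gene Pcna. Library by library the list held fewer calls: 5 without div12_48_d replicate 1, 1 without div12_48_d replicate 2, 3 without div12 replicate 1 and 3 without div12 replicate 2. Gmnn kept its call in each case. The others named here lost theirs without div12_48_d replicate 2, with an adjusted p of 0.2 for Uhrf1, 0.0873 for Gins2, 0.167 for Lig1, 0.218 for Mcm5 and 0.104 for Mcm7.

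Promoters of Mcm5 and Mcm7 are shown because E2F factors are known to act on helicase genes and both genes fell. The windows run from 250 bases before to 50 bases after the gene start, which is base 251, in the RefSeq table of GRCm38.p6, and 3435 of the 4427 tested genes have at least 1 window there. Where a gene has several windows, here and below, one with the most matches is shown. Capitals mark the match to the E2F letters TTTCCCGC or TTTGGCGC on either strand.
Mcm5, chr8:75109259-75109558, plus strand: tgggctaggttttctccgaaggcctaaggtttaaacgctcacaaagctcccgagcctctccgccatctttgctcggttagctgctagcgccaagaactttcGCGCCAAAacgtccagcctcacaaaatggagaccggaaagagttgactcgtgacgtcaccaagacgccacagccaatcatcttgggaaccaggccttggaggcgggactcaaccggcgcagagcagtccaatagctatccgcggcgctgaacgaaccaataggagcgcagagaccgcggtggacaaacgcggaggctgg
Mcm7, chr5:138171834-138172133, minus strand: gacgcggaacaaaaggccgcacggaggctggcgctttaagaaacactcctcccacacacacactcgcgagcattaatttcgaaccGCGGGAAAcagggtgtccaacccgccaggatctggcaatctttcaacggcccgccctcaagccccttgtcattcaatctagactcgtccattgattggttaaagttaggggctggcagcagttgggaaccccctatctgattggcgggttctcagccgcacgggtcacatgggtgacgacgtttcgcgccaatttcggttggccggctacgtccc
The match begins at base 102 of the Mcm5 window and at base 86 of the Mcm7 window. These letters were found in 2 of the 8 replication genes that fell and have a window, the 2 shown. They were found in 12 of 137 of all genes that fell (8.76%), in 11 of 430 that rose (2.56%) and in 3.76% of tested genes. A match in these letters is not evidence of binding, and its part in the fall was not tested.

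Among genes of mitosis and G2/M, 0 of 22 tested passed limma's test, where 15.9% of all tested genes did. An unadjusted p under 0.05 was found for 1363 of all 4427 tested genes. Of the 22, 13 had one and a negative change, and 1 had one and a positive change. In this list 21 of 22 changes were negative (list median -0.46). With median-ratio scaling 12 members fell and after quantile normalization 6 fell. The proliferation marker Mki67 had 491 and 478 TPM in div12_48_d cells and 706 and 533 TPM in div12 cells (-0.34 ± 0.21, adjusted p = 0.323). The condensin subunit gene Smc4 had 333 and 342 TPM in div12_48_d cells and 431 and 394 TPM in div12 cells (-0.29 ± 0.09, adjusted p = 0.0625). For Mki67 the gap between the div12 replicates was wider than the difference between the group means. Among 16 tested genes of DNA repair and checkpoints, Tipin, a replication fork protector, was the only call (146 and 129 TPM in div12_48_d cells, 178 and 185 TPM in div12 cells, a change of -0.40 ± 0.11), and it was lost with any of the 4 libraries left out, at an adjusted p of 0.0525 without div12_48_d replicate 1, 0.244 without div12_48_d replicate 2, 0.0911 without div12 replicate 1 and 0.159 without div12 replicate 2. The share of all tested genes that fell was 4.09%. All 16 changes in the repair list were negative, and 7 members fell with median-ratio scaling, 6 after quantile normalization and 3 with only the groups compared.

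The D-type cyclins, which drive CDK4 and CDK6 in G1, did not move together. Ccnd3 had 144 and 131 TPM in div12_48_d cells, against 254 and 219.9 TPM in div12 cells, and fell by 0.78 ± 0.14 (adjusted p = 0.00759; 0.0673 without div12_48_d replicate 2). Ccnd1, low in B cells, fell by 1.37 ± 0.27, to 1.84 and 1.24 TPM in div12_48_d cells, against 5.09 and 5.99 TPM in div12 cells, with an adjusted p of 0.0118 with all libraries and 0.101 without div12_48_d replicate 2 and 0.0826 without div12 replicate 2. Ccnd2 had 174 and 212 TPM in div12_48_d cells and 174 and 140.0 TPM in div12 cells and did not pass the test (0.30 ± 0.14, adjusted p = 0.179). Rb1, the retinoblastoma protein that holds E2F in check, rose by 0.54 ± 0.13, with an adjusted p of 0.0273 with all libraries and 0.165 without div12_48_d replicate 2, 0.0715 without div12 replicate 1 and 0.132 without div12 replicate 2. The growth regulator Myc had 189 and 180.2 TPM in div12_48_d cells and 174 and 125 TPM in div12 cells (0.32 ± 0.35, adjusted p = 0.598).

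Of 5 tested CDK inhibitor genes 2 rose, where 11.9% of all tested genes rose. The 2 are neighbours on chromosome 4. Cdkn2a (chromosome 4, 89274473 to 89294619) had 57.0 and 45.5 TPM in div12_48_d cells, against 7.59 and 8.90 TPM in div12 cells, and rose by 2.49 ± 0.26 (adjusted p = 8.15e-04). Cdkn2b, which encodes p15, had 13.6 and 9.93 TPM in div12_48_d cells, against 3.73 and 3.60 TPM in div12 cells, and rose by 1.44 ± 0.25 (adjusted p = 0.00692). In both genes every div12_48_d library lay above every div12 library, and both calls held with each library left out. Cdkn2a codes for different proteins in different reading frames, and the table lists a transcript for each. The Arf transcript, whose product stabilises p53, had 49.4 and 41.0 TPM in div12_48_d cells, against 7.53 and 8.85 TPM in div12 cells. The Ink4a transcript, whose product p16 inhibits CDK4 and CDK6, had 7.57 and 4.49 TPM in div12_48_d cells, against 0.0654 and 0.0579 TPM in div12 cells. Cdkn1b, which encodes p27, had 123 and 148 TPM in div12_48_d cells and 111 and 111 TPM in div12 cells and did not pass the test (0.28 ± 0.10, adjusted p = 0.097).

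Plasma cell genes rose in part. Of 9 tested members of the list 4 rose and 0 fell, where 11.9% of all tested genes rose. All 9 changes were positive, and the list median was 1.14. Besides Jchain the risers were Prdm1, Xbp1 and Cd28. Cd28, also counted among the T cell markers, had 1.39 and 2.53 TPM in div12_48_d cells and 0.158 and 0.162 TPM in div12 cells and lost its call with any library left out, at an adjusted p of 0.0556 without div12_48_d replicate 1, 0.249 without div12_48_d replicate 2, 0.117 without div12 replicate 1 and 0.148 without div12 replicate 2, and with a pseudocount of 5 (0.18). Prdm1, the gene of Blimp-1, had 8.69 and 15.9 TPM in div12_48_d cells, against 1.95 and 1.70 TPM in div12 cells (2.18 ± 0.38, adjusted p = 0.00722). Xbp1, a transcription factor of the secretory apparatus, had 200.4 and 246 TPM in div12_48_d cells, against 148 and 135 TPM in div12 cells (0.65 ± 0.12, adjusted p = 0.00962). The levels of Prdm1 were thus low in absolute terms in both groups. Sdc1, the plasma cell surface proteoglycan CD138, had 7.05 and 19.5 TPM in div12_48_d cells and 2.88 and 3.04 TPM in div12 cells and missed the threshold (1.70 ± 0.50, adjusted p = 0.0534). The number called was 4 without div12_48_d replicate 1, 1 without div12_48_d replicate 2, 4 without div12 replicate 1 and 1 without div12 replicate 2. The Prdm1 call was lost without div12_48_d replicate 2 and without div12 replicate 2 (adjusted p = 0.0643 and 0.0526), as was that of Xbp1 (0.0726 and 0.0667); with the most abundant transcript alone Xbp1 had an adjusted p of 0.395. Of 12 immunoglobulin constant genes planned, 0 were in the table, and they were not analysed here.

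Genes known from B1 and other innate-like B cells rose in larger number, with 10 of 19 tested members higher and 1 lower (list median 0.91). Of all tested genes 11.9% rose and 4.09% fell. Cd9, a tetraspanin of B1, marginal zone and plasma cells, had 234 and 304 TPM in div12_48_d cells, against 57.1 and 61.0 TPM in div12 cells (2.16 ± 0.14, adjusted p = 4.23e-04). Bhlhe41, a transcription factor of B1a cells, had 102 and 126 TPM in div12_48_d cells, against 21.0 and 21.5 TPM in div12 cells (2.36 ± 0.17, adjusted p = 4.46e-04). Cd5, the surface protein that defines B1a cells, had 70.4 and 74.7 TPM in div12_48_d cells, against 22.3 and 23.2 TPM in div12 cells (1.63 ± 0.11, adjusted p = 4.23e-04). The other risers were Ctla4, Il10, Lgals3, Zbtb32, Lgals1, Plscr1 and Fcrl5. Cd1d1, which presents lipids to NKT cells and is high on marginal zone B cells, went the other way: 83.0 and 87.6 TPM in div12_48_d cells and 136 and 153 TPM in div12 cells, a change of -0.75 ± 0.12. Its near copy Cd1d2, with which it may share reads, fell by 1.74 ± 0.36 at far lower levels (1.66 and 3.29 TPM in div12_48_d cells, 9.81 and 10.8 TPM in div12 cells; adjusted p 0.0154 with all libraries and 0.0795 without div12_48_d replicate 1, 0.0585 without div12 replicate 1 and 0.0901 without div12 replicate 2). The number of risers was 9 without div12_48_d replicate 1, 7 without div12_48_d replicate 2, 7 without div12 replicate 1 and 9 without div12 replicate 2. This list was drawn up with earlier results of these libraries known, so its count is no independent evidence of its direction.

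The inhibitory receptor genes Ctla4, Lag3 and Pdcd1, best known from T cells, each rose; they form no list of their own. Ctla4 had 10.6 and 20.6 TPM in div12_48_d cells, against 0.584 and 0.859 TPM in div12 cells (3.21 ± 0.48, adjusted p = 0.00394). Lag3 had 22.8 and 42.2 TPM in div12_48_d cells, against 2.77 and 3.24 TPM in div12 cells (3.01 ± 0.35, adjusted p = 0.00134). Pdcd1, which encodes PD-1 and was singled out after its values were seen, had 107 and 73.0 TPM in div12_48_d cells, against 9.96 and 15.4 TPM in div12 cells (2.73 ± 0.31, adjusted p = 0.00132). All 3 were called with each library left out. Lck, which relays the T cell receptor signal in T cells, had 422 and 445 TPM in div12_48_d cells, against 137 and 151 TPM in div12 cells (1.59 ± 0.09, adjusted p = 4.23e-04). Cd27, a TNF receptor family member of memory and plasma cells, had 29.0 and 28.9 TPM in div12_48_d cells, against 11.3 and 13.0 TPM in div12 cells (1.19 ± 0.16). Cd3e, a chain of the T cell receptor complex, had 0.304 and 0.345 TPM in div12_48_d cells and 0.0863 and 0.0759 TPM in div12 cells (0.29 ± 0.18). The part of T cells in these rises was not tested.

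Chemokine and cytokine genes moved in 1 direction among those called: 8 of 20 tested members rose and 0 fell (list median 0.60). Of all tested genes 11.9% rose. Il10, the anti-inflammatory cytokine of regulatory B cells, had 8.19 and 10.6 TPM in div12_48_d cells, against 0.490 and 0.949 TPM in div12 cells (2.60 ± 0.40, adjusted p = 0.00407). Tnfsf9, the ligand of 4-1BB, had 120.1 and 97.0 TPM in div12_48_d cells, against 23.1 and 23.2 TPM in div12 cells (2.18 ± 0.23, adjusted p = 9.77e-04). Both calls held with each library left out. The chemokine genes Ccl4 and Ccl3 lie in 1 cluster on chromosome 11. Ccl4 had 65.3 and 69.3 TPM in div12_48_d cells, against 6.15 and 11.4 TPM in div12 cells (2.86 ± 0.50; adjusted p = 0.00716, and 0.0575 without div12_48_d replicate 2). Ccl3 had 60.4 and 42.9 TPM in div12_48_d cells, against 17.9 and 17.2 TPM in div12 cells (1.49 ± 0.34). Ccl17, a ligand of CCR4, had 11.01 and 14.3 TPM in div12_48_d cells, against 1.39 and 2.75 TPM in div12 cells (2.18 ± 0.50). The adjusted p of Ccl3 was 0.0226 with all libraries and 0.107 without div12_48_d replicate 1, 0.0667 without div12_48_d replicate 2, 0.0769 without div12 replicate 1 and 0.109 without div12 replicate 2, and that of Ccl17 was 0.023 with all libraries and 0.0626 without div12_48_d replicate 1, 0.152 without div12_48_d replicate 2, 0.11 without div12 replicate 1 and 0.0634 without div12 replicate 2. Ebi3, a subunit shared by IL-27 and IL-35, rose by 0.72 ± 0.17 (adjusted p 0.0266 with all libraries and 0.0702 without div12_48_d replicate 1, 0.164 without div12_48_d replicate 2 and 0.155 without div12 replicate 2), and Tnfsf8 and Wnt10a, a Wnt ligand, were the remaining risers. The number of risers was 3 without div12_48_d replicate 1, 2 without div12_48_d replicate 2, 5 without div12 replicate 1 and 4 without div12 replicate 2. Tnfsf14, which encodes the TNF family ligand LIGHT and is not a member of this list, had 64.0 and 45.5 TPM in div12_48_d cells, against 5.07 and 7.83 TPM in div12 cells (2.91 ± 0.30). Its call held with each library left out.

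Of 25 tested targets of CD40 and NF-kB 5 fell and 3 rose (list median 0.14), where 4.09% of all tested genes fell and 11.9% rose, so that the share of risers was near that of all genes. Slamf1, a homotypic adhesion receptor of lymphocytes, had 17.2 and 13.9 TPM in div12_48_d cells, against 56.2 and 52.8 TPM in div12 cells, a change of -1.75 ± 0.13 (adjusted p = 4.46e-04). Cd40 itself, the receptor that the culture antibody binds, had 205 and 148 TPM in div12_48_d cells, against 419.5 and 429.8 TPM in div12 cells, a change of -1.28 ± 0.17 (adjusted p = 0.00232). Traf1, a signalling adaptor of the TNF receptor family, had 121 and 117 TPM in div12_48_d cells, against 250.3 and 221 TPM in div12 cells, a change of -0.98 ± 0.13 (adjusted p = 0.00238). In these 3 genes both div12_48_d libraries lay under both div12 libraries, and their calls held with each library left out. Fas, the death receptor induced by CD40, had 127 and 89.8 TPM in div12_48_d cells, against 227 and 249 TPM in div12 cells, a change of -1.14 ± 0.21 with an adjusted p of 0.00869 with all libraries and 0.0698 without div12_48_d replicate 2 and 0.063 without div12 replicate 2. Nfkb2, the precursor of p52, fell by 0.71 ± 0.19, with an adjusted p of 0.0359 with all libraries and 0.244 without div12_48_d replicate 2, 0.156 without div12 replicate 1 and 0.0571 without div12 replicate 2. The risers were Ccl17 and Ebi3, described above, and Cd86, a co-stimulatory ligand for T cells, by 0.50 ± 0.13. Cd86 lost its call with any library left out, at an adjusted p of 0.0556 without div12_48_d replicate 1, 0.205 without div12_48_d replicate 2, 0.105 without div12 replicate 1 and 0.109 without div12 replicate 2, and under both scalings (0.0853 and 0.110). Fas was also the sole call among 13 tested genes of germinal centre B cells; Bcl6, their defining transcription factor, had 25.4 and 33.0 TPM in div12_48_d cells and 44.6 and 35.5 TPM in div12 cells (-0.45 ± 0.27, adjusted p = 0.314).

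Of 22 tested interferon response genes 8 fell and 1 rose in div12_48_d cells, where 4.09% of all tested genes fell and 11.9% rose. In the list 13 were not called, and its median was -0.50. The falls numbered 12 with median-ratio scaling, 11 after quantile normalization and 5 with only the groups compared. Gbp2b, a guanylate-binding protein that may share reads with its relatives, had 15.8 and 14.9 TPM in div12_48_d cells, against 49.9 and 46.1 TPM in div12 cells, a change of -1.58 ± 0.24 (adjusted p = 0.00394). Ifit2, which binds viral RNA in the cytosol, had 5.14 and 4.18 TPM in div12_48_d cells, against 12.4 and 13.1 TPM in div12 cells, a change of -1.29 ± 0.17 (adjusted p = 0.0025). Both calls held with each library left out. Isg15, a ubiquitin-like modifier, had 20.4 and 26.5 TPM in div12_48_d cells, against 37.5 and 45.1 TPM in div12 cells, a change of -0.79 ± 0.18 with an adjusted p of 0.0207 with all libraries and 0.101 without div12_48_d replicate 1 and 0.128 without div12 replicate 2. The antiviral GTPase gene Mx1 fell by 1.01 ± 0.27, with an adjusted p of 0.0364 with all libraries and 0.162 without div12_48_d replicate 1, 0.0565 without div12_48_d replicate 2, 0.111 without div12 replicate 1 and 0.144 without div12 replicate 2. Irgm1, Gbp5 and Xaf1 also fell. Samhd1, which degrades deoxynucleotides, went against the list: 235 and 362 TPM in div12_48_d cells and 195 and 174 TPM in div12 cells, a rise of 0.66 ± 0.18 with an adjusted p of 0.0421 with all libraries and 0.197 without div12_48_d replicate 2, 0.0874 without div12 replicate 1 and 0.195 without div12 replicate 2. The number of falls was 2 without div12_48_d replicate 1, 4 without div12_48_d replicate 2, 3 without div12 replicate 1 and 2 without div12 replicate 2.

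The promoter windows of Isg15 and Gbp2b are shown because the interferon-stimulated element is the site that links such genes to interferon signalling. Capitals mark the letters GAAA, any pair of bases and GAAA, searched on both strands. The table and its windows are those named for Mcm5.
Isg15, chr4:156200769-156201068, minus strand: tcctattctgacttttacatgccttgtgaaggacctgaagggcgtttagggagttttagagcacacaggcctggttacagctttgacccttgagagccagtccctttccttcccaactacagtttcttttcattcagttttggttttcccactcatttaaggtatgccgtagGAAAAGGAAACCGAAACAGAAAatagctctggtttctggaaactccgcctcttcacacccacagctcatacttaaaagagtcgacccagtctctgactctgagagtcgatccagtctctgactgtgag
Gbp2b, chr3:142594597-142594896, plus strand: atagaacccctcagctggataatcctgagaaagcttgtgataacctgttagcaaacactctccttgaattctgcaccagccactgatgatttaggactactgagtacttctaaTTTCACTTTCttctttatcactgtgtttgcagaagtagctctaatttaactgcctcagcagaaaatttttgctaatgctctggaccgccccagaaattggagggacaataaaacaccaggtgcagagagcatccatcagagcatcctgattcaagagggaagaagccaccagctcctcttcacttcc
The Isg15 window holds 3 overlapping matches that begin at bases 173, 179 and 185, ahead of the gene start at base 251, and the Gbp2b window holds 1 on the opposite strand at base 114. The element was found in 4 of 6 interferon genes that fell and have a window (Isg15, Gbp2b, Gbp5 and Irgm1). It was found in 7 of 137 of all genes that fell (5.11%), in 19 of 430 that rose (4.42%) and in 4.51% of tested genes. Its share among interferon genes that were not called was not counted. A match to the element is not evidence of binding, and its part in the fall was not tested.

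Immediate early genes, which answer a stimulus within minutes to hours, rose in part in div12_48_d cells. Of 17 tested members of the list that also holds Myc, 7 rose and 0 fell (list median 1.08), where 11.9% of all genes rose. Egr2, a zinc finger transcription factor induced through the antigen receptor, had 114 and 101 TPM in div12_48_d cells, against 13.0 and 15.0 TPM in div12 cells (2.86 ± 0.42, adjusted p = 0.00362). Egr1, of the same family, had 218 and 251 TPM in div12_48_d cells, against 34.5 and 78.1 TPM in div12 cells (2.15 ± 0.54, adjusted p = 0.0318). Fos, a subunit of AP-1, had 11.02 and 57.3 TPM in div12_48_d cells, against 1.25 and 2.85 TPM in div12 cells (3.17 ± 0.72, adjusted p = 0.0213). Its div12_48_d replicates were more than 5-fold apart. Zfp36, which degrades cytokine mRNAs, had 407 and 702 TPM in div12_48_d cells, against 183 and 265 TPM in div12 cells (1.28 ± 0.34, adjusted p = 0.0385). The phosphatase gene Dusp2 rose by 1.19 ± 0.10, the AP-1 gene Jun by 1.08 ± 0.25 and Jund by 1.03 ± 0.12. Egr2, Dusp2 and Jund were called with each library left out. Without div12_48_d replicate 2 the adjusted p was 0.174 for Egr1, 0.113 for Fos, 0.258 for Zfp36 and 0.106 for Jun, and Fos, Zfp36 and Jun were also lost without either div12 library. Egr1 was also lost without div12_48_d replicate 1 (0.0892) and without div12 replicate 1 (0.147). The number of risers was 7 without div12_48_d replicate 1, 3 without div12_48_d replicate 2, 3 without div12 replicate 1 and 4 without div12 replicate 2.

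Windows of Egr2 and Zfp36 are shown for the CArG box, the core of the serum response element that many immediate early genes carry; this motif was chosen after the values were seen. Capitals mark the match.
Egr2, chr10:67537316-67537615, plus strand: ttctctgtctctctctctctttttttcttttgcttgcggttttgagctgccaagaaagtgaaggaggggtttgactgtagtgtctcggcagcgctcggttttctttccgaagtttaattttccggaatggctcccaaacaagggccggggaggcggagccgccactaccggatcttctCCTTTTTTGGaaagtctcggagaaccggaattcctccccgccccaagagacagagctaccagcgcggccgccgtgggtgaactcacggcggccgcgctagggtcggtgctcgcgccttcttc
Zfp36, chr7:28379179-28379478, minus strand: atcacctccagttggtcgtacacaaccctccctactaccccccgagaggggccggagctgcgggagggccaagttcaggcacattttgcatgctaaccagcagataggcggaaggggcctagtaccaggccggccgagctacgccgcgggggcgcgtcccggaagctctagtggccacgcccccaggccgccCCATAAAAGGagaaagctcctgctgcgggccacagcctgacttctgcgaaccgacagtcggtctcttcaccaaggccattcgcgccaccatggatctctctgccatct
The match begins at base 179 of the Egr2 window and at base 193 of the Zfp36 window. Egr2 has several windows, and the one shown was picked by its match. It begins at 67537316, inside the gene, whose listed start is 67534469. The box was found in 2 of the 6 immediate early genes that rose and have a window, the 2 shown. It was found in 13 of 430 of all genes that rose (3.02%), in 3 of 137 that fell (2.19%) and in 1.89% of tested genes. A match to the box is not evidence of binding, and its part in the rise was not tested.

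Some regulators of quiescence and of homing rose as well. Klf2, the transcription factor that keeps resting lymphocytes in circulation, had 135 and 201 TPM in div12_48_d cells, against 45.2 and 40.3 TPM in div12 cells (1.93 ± 0.24, adjusted p = 0.0017). It led the list of quiescence genes (list median 0.26). Of the list's 18 tested members 4 rose and 0 fell, where 11.9% of all tested genes rose. The others were Foxo3 (0.62 ± 0.14), a forkhead factor active when PI3K signalling is low, Tsc1 (0.51 ± 0.12), which restrains mTORC1, and Tob1 (0.48 ± 0.13), an antiproliferative factor. Without div12_48_d replicate 2 the adjusted p was 0.165, 0.171 and 0.282 in that order, so that Klf2 alone remained called there. S1pr1, the receptor that leads lymphocytes out of lymphoid organs, had 64.9 and 114 TPM in div12_48_d cells, against 13.96 and 13.2 TPM in div12 cells (2.58 ± 0.29, adjusted p = 0.00116). Cxcr4, the receptor of CXCL12, had 176 and 182 TPM in div12_48_d cells, against 60.3 and 50.1 TPM in div12 cells (1.68 ± 0.17, adjusted p = 7.58e-04). Rgs1, which dampens chemokine receptor signals, rose by 1.34 ± 0.19. All 4 of Klf2, S1pr1, Cxcr4 and Rgs1 were called with each library left out. The integrin chain gene Itgb7, of gut homing, rose by 1.30 ± 0.25 (adjusted p 0.0109 with all libraries and 0.0568 without div12 replicate 1 and 0.0573 without div12 replicate 2). In all, 7 of 18 tested migration receptors and integrins rose, beside 11.9% of all tested genes, with Itgb1, S1pr3 and Cxcr3 as the others. Another 2 members fell, beside 4.09% of all tested genes. Those were Ccr6, the receptor of CCL20, with 694 and 573 TPM in div12_48_d cells, against 1230.4 and 1283 TPM in div12 cells (-0.99 ± 0.16; adjusted p = 0.00585, and 0.0538 without div12_48_d replicate 2), and the scavenging receptor gene Ackr3 (-1.44 ± 0.37; adjusted p 0.0323 with all libraries and 0.211 without div12_48_d replicate 2, 0.107 without div12 replicate 1 and 0.133 without div12 replicate 2). The migration list had as risers 4 without div12_48_d replicate 1, 4 without div12_48_d replicate 2, 4 without div12 replicate 1 and 3 without div12 replicate 2.

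Genes that mark resting B cells moved both ways (list median -0.03). Of 17 tested members 5 were higher and 2 lower, where 11.9% of all tested genes rose and 4.09% fell. Fcmr, the Fc receptor for IgM, had 2749 and 3796 TPM in div12_48_d cells, against 1049 and 944 TPM in div12 cells (1.70 ± 0.14, adjusted p = 4.46e-04). Fcer2a, the low-affinity IgE receptor CD23 of follicular B cells, had 1081 and 865 TPM in div12_48_d cells, against 2700.0 and 2722 TPM in div12 cells, a change of -1.49 ± 0.13 (adjusted p = 4.81e-04). These abundant Fc receptor genes thus moved in opposite directions, both with calls that held with each library left out. Cd55, a complement regulator, rose by 0.64 ± 0.11 and Cd38, an ectoenzyme, by 0.58 ± 0.11; Fcrla and Klhl14 were the other risers. The scaffold gene Bank1 fell by 0.37 ± 0.10, with an adjusted p of 0.0338 with all libraries and 0.143 without div12_48_d replicate 1, 0.0676 without div12 replicate 1 and 0.162 without div12 replicate 2. Without div12_48_d replicate 2 the adjusted p was 0.0532 for Cd55, 0.0743 for Cd38 and 0.263 for Fcrla. In the antigen receptor pathway 2 of 20 tested genes rose, a share near the 11.9% of all genes: Pik3cd, the leukocyte PI3K catalytic subunit, with 423 and 569.9 TPM in div12_48_d cells, against 243 and 206 TPM in div12 cells (1.13 ± 0.14, adjusted p = 0.0017), and the kinase gene Fyn (0.45 ± 0.13; adjusted p 0.0466 with all libraries and 0.0698 without div12_48_d replicate 1, 0.279 without div12_48_d replicate 2 and 0.219 without div12 replicate 2). Among 8 tested genes of MHC class II presentation the peptide-loading gene H2-DMb1 fell by 0.67 ± 0.11, to 1177 and 1097 TPM in div12_48_d cells, against 1738 and 1878 TPM in div12 cells (adjusted p = 0.0054, and 0.0506 without div12_48_d replicate 2). Among 11 of class I presentation Nlrc5, their transcriptional activator, rose by 0.76 ± 0.11, to 179 and 206 TPM in div12_48_d cells, against 120.4 and 106 TPM in div12 cells.

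The BCL2 family sets the threshold for apoptosis. Of 13 tested members 3 were higher and 2 lower, where 11.9% of all tested genes rose and 4.09% fell. The risers were pro-apoptotic. Bbc3, which encodes PUMA, had 52.8 and 61.7 TPM in div12_48_d cells, against 23.5 and 25.4 TPM in div12 cells (1.19 ± 0.19, adjusted p = 0.00482), with a call that held with each library left out. Bmf, another BH3-only gene, had 25.9 and 31.8 TPM in div12_48_d cells, against 15.0 and 15.8 TPM in div12 cells (0.86 ± 0.15; adjusted p = 0.00722, and 0.0651 without div12_48_d replicate 2). Bax, a pore-forming member, rose by only 0.27 ± 0.07 and lost its call under both scalings (0.226 and 0.127). The genes that fell were the survival gene Bcl2a1a (992 and 849 TPM in div12_48_d cells, 1459.7 and 1568 TPM in div12 cells; -0.72 ± 0.19), which has near-identical copies, and the pro-apoptotic Bid (447 and 408 TPM in div12_48_d cells, 673 and 705 TPM in div12 cells; -0.69 ± 0.19). Both falls were lost with any library left out, at adjusted p of up to 0.233 for Bcl2a1a and 0.221 for Bid, both without div12_48_d replicate 2. For Bax the highest such value was 0.155, without div12_48_d replicate 1.

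The genes of both ferritin chains rose. Ftl1, the ferritin light chain, had 6462 and 6459 TPM in div12_48_d cells, against 3204 and 3329.5 TPM in div12 cells (0.98 ± 0.13, adjusted p = 0.00231), the largest gain in TPM of any gene that met the naming rule. The ferritin heavy chain gene Fth1 rose by 0.58 ± 0.14, with an adjusted p of 0.0238 with all libraries and 0.167 without div12_48_d replicate 2 and 0.14 without div12 replicate 2, of 0.0511 with median-ratio scaling and of 0.119 with only the groups compared. Of 32 tested genes of autophagy and the lysosome 9 rose and 0 fell, where 11.9% of all tested genes rose. The list median was 0.34, and with median-ratio scaling or quantile normalization 8 members rose and 1 fell. Among them Sqstm1, the cargo receptor p62, had 338 and 382 TPM in div12_48_d cells, against 211 and 210.4 TPM in div12 cells (0.77 ± 0.14). Npc2, which carries cholesterol out of lysosomes, had 218 and 236 TPM in div12_48_d cells, against 135 and 143 TPM in div12 cells (0.70 ± 0.13). Ulk1, the kinase that starts autophagy, rose by 0.71 ± 0.15 and the protease gene Ctsl by 0.85 ± 0.20. The risers numbered 8 without div12_48_d replicate 1, 0 without div12_48_d replicate 2, 5 without div12 replicate 1 and 5 without div12 replicate 2. Without div12_48_d replicate 2 the adjusted p was 0.0813 for Sqstm1, 0.0851 for Npc2, 0.117 for Ulk1 and 0.165 for Ctsl. Plac8, a small cysteine-rich protein, had 1141 and 2084 TPM in div12_48_d cells, against 281 and 382 TPM in div12 cells (2.23 ± 0.38, with an adjusted p of 0.00692 with all libraries and 0.0589 without div12_48_d replicate 2). Neat1, the long noncoding RNA of paraspeckles, had 835 and 772 TPM in div12_48_d cells, against 182 and 209 TPM in div12 cells (2.04 ± 0.16, adjusted p = 4.46e-04).

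Of 20 tested actin genes 2 rose, a share near the 11.9% of all tested genes, and 3 fell, where 4.09% of all fell. The falls numbered 7 with median-ratio scaling, 5 after quantile normalization and 6 without naive cells, with 2 rises in each. Actn1 had 32.8 and 71.7 TPM in div12_48_d cells, against 3.89 and 2.94 TPM in div12 cells. Vcl, the focal adhesion protein vinculin, had 38.1 and 47.2 TPM in div12_48_d cells, against 19.9 and 20.1 TPM in div12 cells (1.05 ± 0.13, adjusted p = 0.00157). Flna, which crosslinks filaments, had 264 and 292 TPM in div12_48_d cells, against 514 and 427 TPM in div12 cells, a change of -0.75 ± 0.11 (adjusted p = 0.00407). These 3 calls held with each library left out. The filament-severing gene Cfl1 fell by 0.42 ± 0.07 (adjusted p = 0.00668, and 0.0595 without div12_48_d replicate 2) and its cofactor Wdr1 fell by 0.38 ± 0.07 (adjusted p 0.0106 with all libraries and 0.0813 without div12_48_d replicate 2 and 0.0527 without div12 replicate 2).

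Core metabolism and protein synthesis had few calls, where 11.9% of all tested genes rose and 4.09% fell. In oxidative phosphorylation 32 of 39 changes were negative (list median -0.13), and in cholesterol synthesis 15 of 18 were (list median -0.34). In glycolysis 13 of 20 changes were positive (list median 0.04). The 23 tested cytosolic ribosomal protein genes, 20 genes of ribosome assembly and translation, 16 cytosolic chaperone genes, 10 genes of serine and one-carbon metabolism and 6 proteasome genes gave 0 calls in limma, with 3, 1, 4, 2 and 2 members at an unadjusted p under 0.05 in that order. Of all 4427 tested genes, 1363 had such a p. Calls of up to 2 members appeared in each of these lists under some other setting. Medians of these lists lay between -0.15 and -0.01. The elongation factor gene Eef1a1 had 33188 and 31332 TPM in div12_48_d cells and 34214 and 34408 TPM in div12 cells (-0.09 ± 0.08), and the chaperone gene Hspa8 4558 and 4026 TPM in div12_48_d cells and 4586 and 4565 TPM in div12 cells (-0.09 ± 0.15). Among 20 glycolytic genes Aldoa, the gene of aldolase A, rose to 1609 and 1607 TPM in div12_48_d cells, against 1052 and 927 TPM in div12 cells (0.70 ± 0.08, adjusted p = 0.00116), while Pgk1, the gene of phosphoglycerate kinase, fell by 0.26 ± 0.08 with a call that was lost with any library left out (adjusted p 0.0777 without div12_48_d replicate 1, 0.267 without div12_48_d replicate 2, 0.116 without div12 replicate 1 and 0.158 without div12 replicate 2). Of 39 genes of oxidative phosphorylation 1 fell, Uqcrc2 of complex III (-0.26 ± 0.07; adjusted p 0.0461 with all libraries and 0.0534 without div12_48_d replicate 1, 0.278 without div12_48_d replicate 2, 0.0825 without div12 replicate 1 and 0.184 without div12 replicate 2). In cholesterol and lipid synthesis 2 of 18 fell: Scd1, a fatty acid desaturase, with 387 and 435 TPM in div12_48_d cells, against 879 and 656 TPM in div12 cells (-0.89 ± 0.18; adjusted p 0.0135 with all libraries and 0.0671 without div12_48_d replicate 1, 0.0595 without div12_48_d replicate 2 and 0.0677 without div12 replicate 1), and Pmvk of the mevalonate pathway (-0.52 ± 0.08, adjusted p = 0.00525). The chaperone gene Hsp90b1 of the endoplasmic reticulum rose by 0.30 ± 0.07 and calnexin (Canx) fell by 0.36 ± 0.10. With Xbp1 these were the 3 calls among 16 tested genes of that compartment, beside 15.9% of all tested genes. Hsp90b1 lost its call with any library left out and with median-ratio scaling (adjusted p = 0.185), and Canx had an adjusted p of 0.0359 with all libraries and 0.236 without div12_48_d replicate 2, 0.139 without div12 replicate 1 and 0.0719 without div12 replicate 2; for Hsp90b1 it was 0.0798 without div12_48_d replicate 1, 0.133 without div12_48_d replicate 2, 0.0733 without div12 replicate 1 and 0.101 without div12 replicate 2.

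Of 29 tested chromatin modifiers 4 rose and 0 fell, a share of risers near the 11.9% of all tested genes. They were the demethylase gene Kdm5b (0.82 ± 0.16), the deacetylase gene Hdac5 (0.76 ± 0.15), Tet2 (0.73 ± 0.14), which oxidises methylcytosine, and the methyltransferase gene Kmt2d (0.64 ± 0.17). Tet2 had 71.7 and 75.5 TPM in div12_48_d cells, against 45.8 and 42.0 TPM in div12 cells. None of the 4 calls held without div12_48_d replicate 2, where the adjusted p was 0.093, 0.111, 0.0854 and 0.263 in that order, and the list had 0 calls there and without div12 replicate 2. The histone variant gene H2afz had 1312 and 1111 TPM in div12_48_d cells, against 1660.4 and 1704 TPM in div12 cells, a change of -0.48 ± 0.11. It was the only call among 32 tested histone genes (adjusted p 0.0224 with all libraries). The call was lost without div12_48_d replicate 2, without div12 replicate 1 and without div12 replicate 2.

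**Figure D3:**
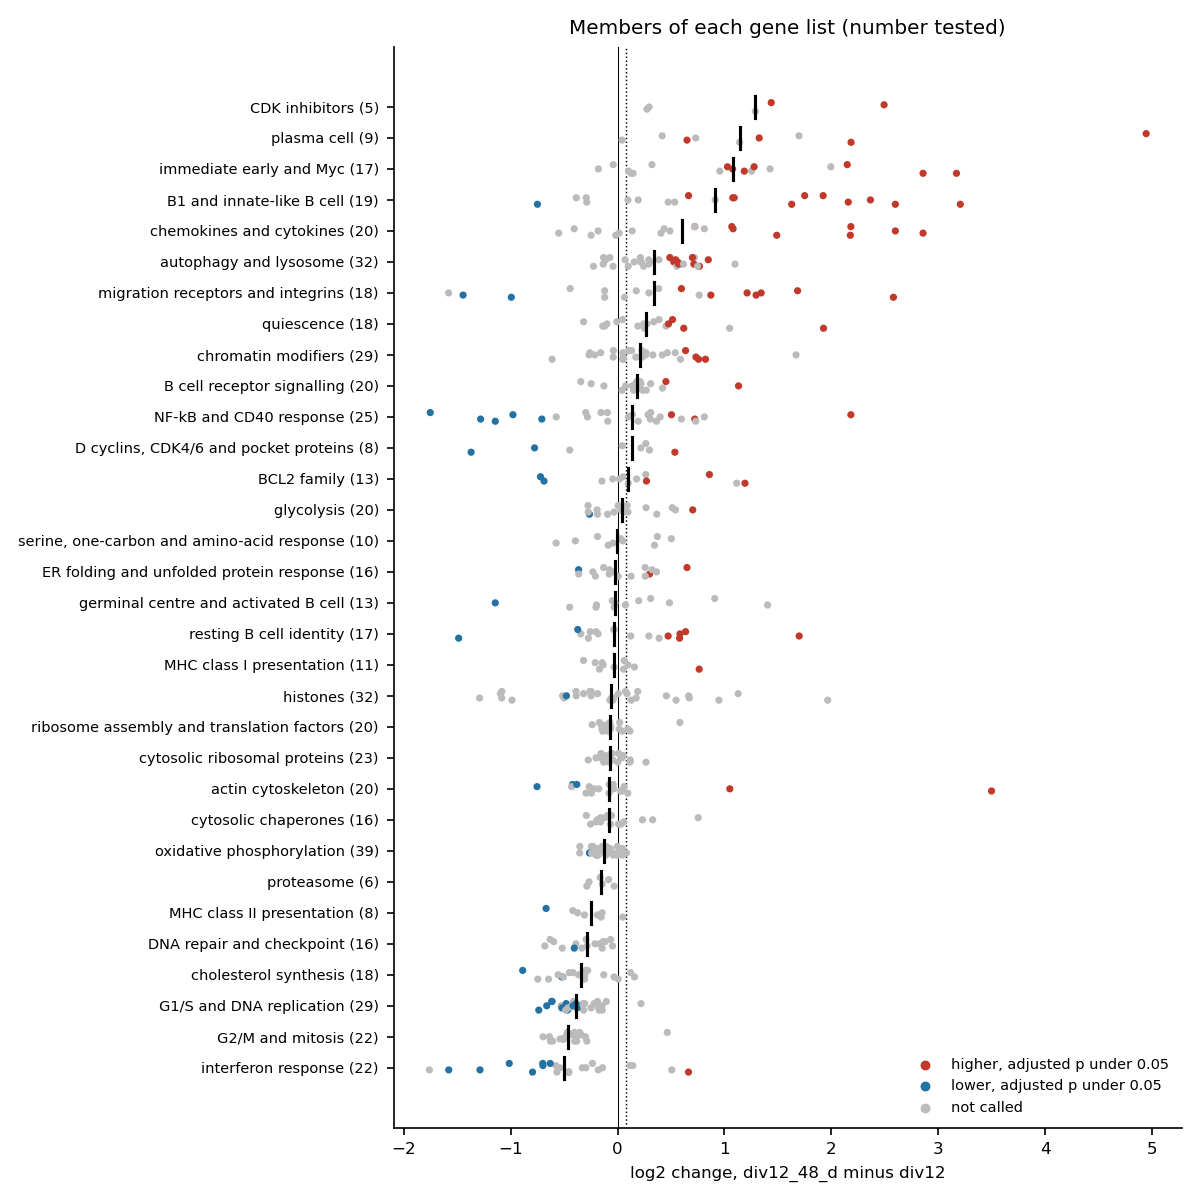
Change of every tested member (horizontal axis, log2, div12_48_d minus div12) in each gene list with at least 5 tested members, other cell types' markers aside; red points were called higher, blue points lower, grey points not called, black bars are list medians and the dotted line is the median of all genes. List medians run from -0.50 for interferon response genes to 1.29 for CDK inhibitors, where 2 of 5 members were called.

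The calls above were then set beside the change of the same genes in the groups called undivided, div12_48_u against div0. Of these, only the div12_48_u cells had divided earlier, so their change is not one of phase alone. This comparison shares no library with the first, and limma called 680 genes in it (15.4%), 450 higher and 230 lower. The genes called in both numbered 338, of which 334 had the same direction, 259 higher and 75 lower, or 47.3% of the calls in divided cells and 49.1% of those in undivided cells. Of the 706 genes called in divided cells, 94.2% had the same sign in undivided cells, against 74.9% of all tested genes. Over the 4427 genes the changes had a Pearson r of 0.636, which describes genes that share the libraries of each comparison. The 4 genes called in opposite directions were Alpl (1.32 ± 0.24 in divided and -1.06 ± 0.24 in undivided cells), Gcnt1, Nlrc3 and Ptprc, the gene of CD45 (-0.33 ± 0.08 and 0.30 ± 0.08). The count of calls in undivided cells fell to 86 without div0 replicate 2, 236 without div0 replicate 1, 247 without div12_48_u replicate 2 and 289 without div12_48_u replicate 1.

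Apoe, Fos, Egr2 and Lck had estimates close to each other in divided and undivided cells. For Apoe the change was 3.80 ± 0.38 in divided cells and 3.13 ± 0.38 in undivided cells, with 693 and 1169 TPM in div12_48_u cells and 108 and 96.7 TPM in div0 cells. For Lck it was 1.59 ± 0.09 and 1.56 ± 0.09, with 346 and 401 TPM in div12_48_u cells and 125 and 126 TPM in div0 cells. For Egr2 the change was 2.86 ± 0.42 in divided and 2.51 ± 0.42 in undivided cells. Jchain, Cd9 and Cdkn2a had larger estimates in divided cells. Jchain had 24.5 and 31.1 TPM in div12_48_u cells and 14.1 and 16.6 TPM in div0 cells, a change of 0.81 ± 0.43 beside 4.94 ± 0.43 in divided cells. Cd9 had 68.0 and 80.7 TPM in div12_48_u cells and 59.0 and 56.6 TPM in div0 cells, a change of 0.35 ± 0.14 beside 2.16 ± 0.14. Cdkn2a had 4.17 and 4.91 TPM in div12_48_u cells and 2.08 and 4.30 TPM in div0 cells, a change of 0.45 ± 0.26 beside 2.49 ± 0.26. Birc5 fell in both, to 113 and 98.5 TPM in div12_48_u cells, against 287 and 372 TPM in div0 cells, with changes of -1.62 ± 0.15 in undivided and -0.83 ± 0.15 in divided cells. In undivided cells, where 5.2% of all tested genes fell, 21 of 29 replication genes fell with a list median of -0.79, and 21 of 22 G2/M genes fell with a list median of -1.17.

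The difference between the phase changes was tested as an interaction. Limma called 0 of 4427 genes, the lowest adjusted p was 0.0539, 36 genes were under 0.1, and 438 had an unadjusted p under 0.05. Cd9 had an adjusted p of 0.0539 and a difference of 1.80 ± 0.20, Jchain 0.0553 and 4.13 ± 0.61, Adamts7 0.0582 and 2.60 ± 0.40, and Slamf1 0.0582 and -1.26 ± 0.19. For Birc5 it was 0.217 and 0.79 ± 0.21. Some other settings made a few calls, up to 15 with a pseudocount of 5 or with median-ratio scaling, and 10 without div12_48_u replicate 1. The test therefore separates no named gene's phase change in divided cells from that in undivided cells, and the data do not show that the changes were equal.

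**Figure D4:**
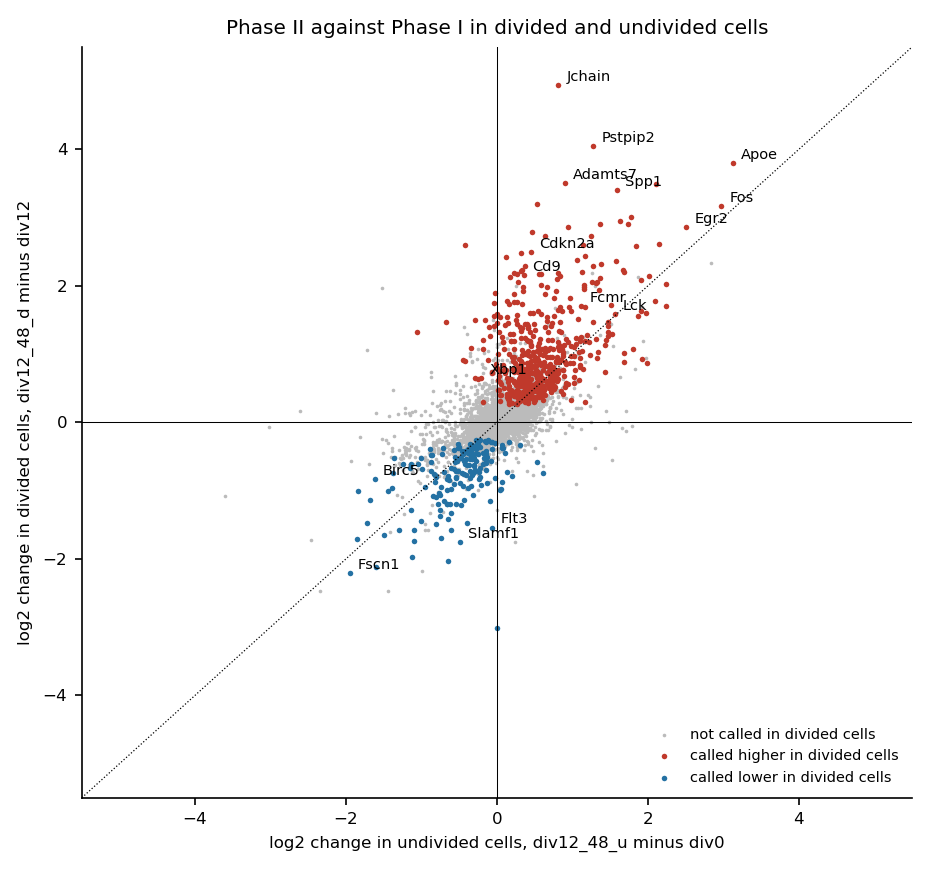
Change in divided cells (vertical axis, log2, div12_48_d minus div12) against change in undivided cells (horizontal axis, log2, div12_48_u minus div0) for 4427 genes; red and blue points are genes called higher and lower in divided cells, and the dotted line marks equal change. Most red points lie right of 0 and, in 406 of 525 cases, above the line of equal change. Red points were chosen for a high change in divided cells, which by itself places more of them above that line. The count is therefore no evidence of a larger change in divided cells. Apoe, Fos, Egr2 and Lck lie near the line.

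Across all 5 groups the genes that rose in div12_48_d cells fell into different orders. Cd9 and Pdcd1 were highest in div12_48_d cells, above every library of the other 4 groups; Pdcd1 had 107 and 73.0 TPM in div12_48_d cells, 19.4 and 12.9 TPM in div12_48_u cells, 9.96 and 15.4 TPM in div12 cells, 7.46 and 4.92 TPM in div0 cells and 2.36 and 1.44 TPM in naive cells. Cdkn2a was likewise highest in div12_48_d cells, with 0.822 and 1.09 TPM in naive cells. Jchain was high at both ends, with 378 and 464 TPM in div12_48_d cells and 147 and 331 TPM in naive cells. So was Ctla4, with 33.4 and 11.4 TPM in naive cells. Prdm1 had 19.4 and 7.86 TPM in naive cells. It also had 8.38 and 8.26 TPM in div12_48_u cells, near the 8.69 TPM of div12_48_d replicate 1. In naive cells the replicates were more than 2-fold apart for all 3 genes. The naive libraries also carried macrophage transcripts, with 54.1 and 213 TPM of Csf1r and 65.9 and 249 TPM of C1qa, and T cell Cd3e at 10.3 and 10.2 TPM; their part in the naive levels was not tested. Klf2 and S1pr1, though higher in div12_48_d than in div12 cells, stayed far under naive cells, which had 2103 and 1292 TPM of Klf2 and 852 and 556 TPM of S1pr1. Fcmr peaked in div12_48_u cells, at 5509.7 and 5481 TPM. Birc5 had 27.9 and 33.4 TPM in naive cells, so that its level in div12_48_d cells remained well above rest.

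**Figure D5:**
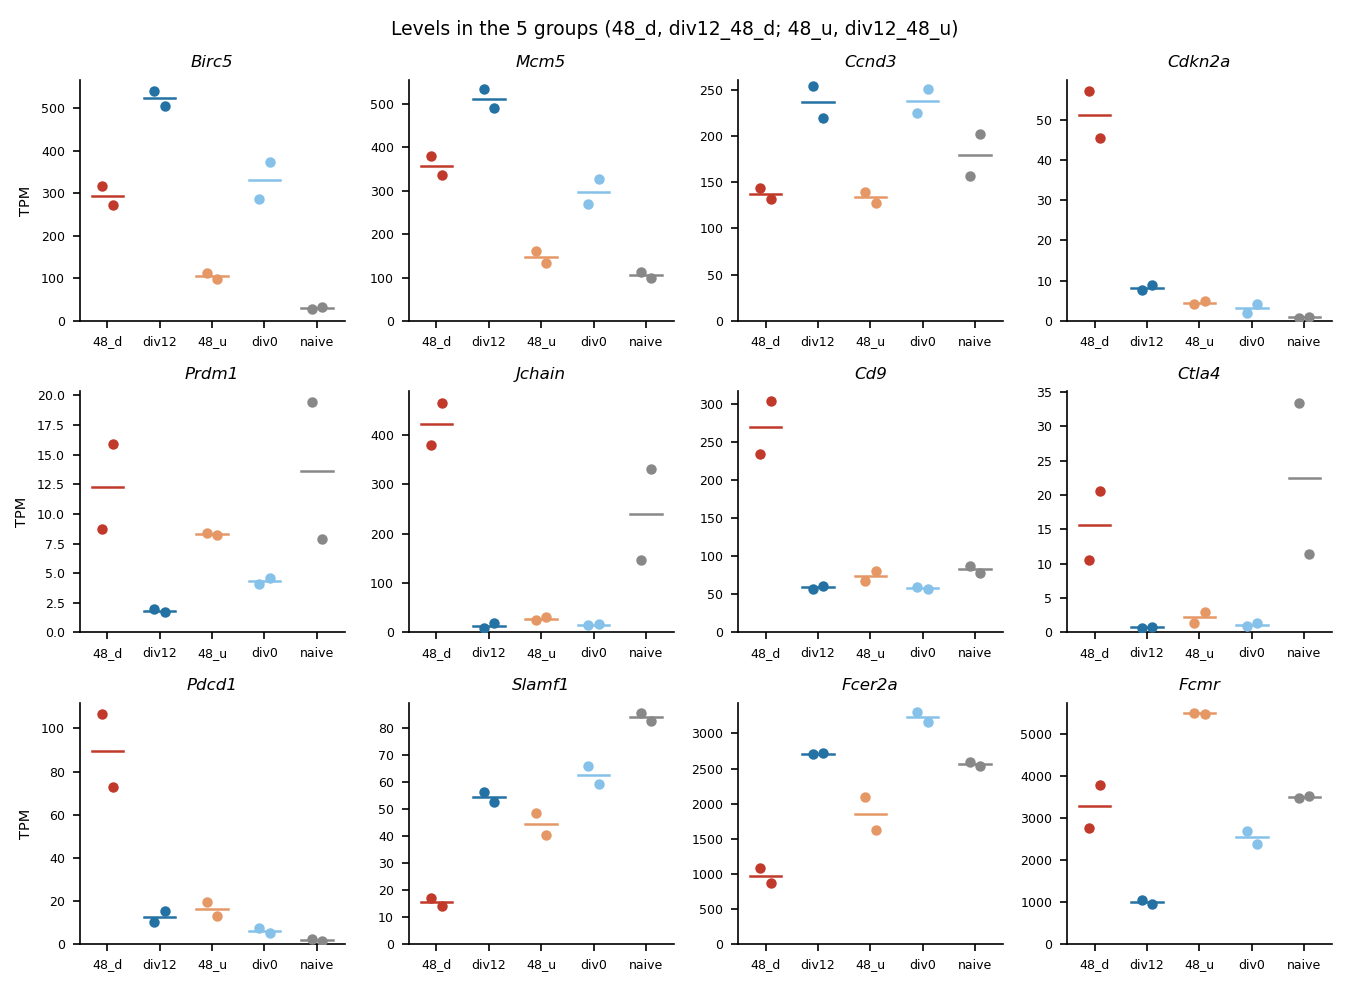
TPM of 12 genes in each library of the 5 groups, in the order div12_48_d, div12, div12_48_u, div0 and naive; points are the 2 libraries and lines their means. Birc5, Mcm5 and Ccnd3 lie lower in div12_48_d than in div12 cells, and Cd9, Cdkn2a and Pdcd1 are highest in div12_48_d cells. Jchain and Ctla4 are high in div12_48_d and in naive cells. Prdm1 is higher in naive cells and in both Phase II groups than in div12 and div0 cells.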

How the data were processed

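RNA was sequenced from 10 libraries of mouse B cells, 2 in each of 5 groups, after ribosomal RNA depletion, as 50 bp single-end reads per the labels' protocols. The authors deposited 1 table of TPM per transcript on mm10. HISAT2 and Salmon, featureCounts and HTSeq, and DESeq2 appear in the submitters' processing notes without roles; for versions and strand setting the sources used here give nothing. Each library sums to 1000000 TPM, so counts and depth cannot be recovered and precision per gene is unknown. Of 13128 transcripts, 13065 with a symbol were summed into 6610 genes, which include 6320 of 21900 protein-coding RefSeq genes (28.9%); all other genes were not analysed here. The test covered 4427 genes that reached 1 TPM in 2 or more libraries. Limma 3.58.1 (R 4.3.3) was fitted to log2(TPM + 1) of all 10 libraries by group with a mean-variance trend, with 5 residual degrees of freedom, and p-values were adjusted by Benjamini-Hochberg over all tested genes. The script was tested on simulated data. Named genes were the 12 called genes with the largest change each way whose higher group averaged 10 TPM or more, the 6 with the largest difference in TPM each way, and leading or defining members of the lists; Pdcd1, Csf1r and other genes outside it were named after their values were seen. The genes, lists and comparison were chosen with earlier results of these data known. Alternatives were other pseudocounts, filters, scalings, sets of libraries, a replicate block, the most abundant transcript per gene and each library left out. Where separate animals are not stated, p-values measure only the spread between these libraries. The 2 libraries per group are the limit on every error given. Promoter sequences come from RefSeq, GRCm38.p6, matched by symbol. Values of some genes are not reported here.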

Additional observations from a re-analysis of the deposited data

How the results depend on the processing

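With 4 libraries and unknown depth, counts of calls moved more than directions: none of the 112 named genes that were called reversed under any alternative run. For named genes that were not called, a change of sign was not counted. The 706 calls (525 higher, 181 lower) became 412 (309 higher, 103 lower) with only the groups compared in the fit and 244 (204 higher, 40 lower) with a fold of at least 2. Without the naive libraries, whose replicates had 340 genes more than 2-fold apart, 962 genes were called (699 higher, 263 lower). With only the groups compared, 39 of the named genes that were called lost their call. Lower calls numbered 376 with median-ratio scaling and 364 after quantile normalization. With 1 library left out, calls ranged from 227 to 489, higher calls from 177 to 388 and lower calls from 50 to 101; these fits take the single library that remains in its group to vary as the other groups do. The labels do not say whether replicate numbers pair the samples; deviations of same-numbered libraries had a correlation of -0.18 between div12_48_d and div12 cells, 0.20 between div12_48_d and div12_48_u cells and -0.24 between div12 and div0 cells. With the replicate block 600 genes were called (449 higher, 151 lower). The crossed pairing, chosen after seeing the data, gave 693 calls. In undivided cells the 680 calls became 169 with a fold of at least 2 and 86 to 289 with 1 library left out. The interaction had 0 calls; it had 15 with a pseudocount of 5, 7 with a minimum of 5 TPM, 15 with median-ratio scaling, 8 after quantile normalization, 11 with only the groups compared, 11 without naive cells, 3 with the replicate block, 2 with the most abundant transcript and 0 to 10 with 1 library left out. Of 136 named genes 112 were called, and 46 of them were called with each library left out. Among gene lists, median-ratio scaling gave 4 falls in cholesterol synthesis (2 as reported), 5 in oxidative phosphorylation (1), 3 in MHC class II presentation (1) and 4 in resting B cell identity (2), and with only the groups compared 1 quiescence gene (4) and 1 resting B cell gene (5) rose. The cause of these shifts was not tested.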

Other observations

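Among genes that share the start of their symbol, those beginning with Atp, mostly ATPases and ion pumps, had 11 of 39 tested members higher and 0 lower in div12_48_d than in div12 cells (28.2% called, beside 15.9% of all tested genes). They included 5 genes of the proton pump that acidifies lysosomes, Atp6v0a1, Atp6v0c, Atp6v0d1, Atp6v0e and Atp6v1b2. Genes beginning with Slc, the solute carriers, had 6 of 78 members higher and 4 lower (12.8%), and zinc finger genes beginning with Zfp had 1 of 19 called (5.26%). These groups were formed from symbols after the data were seen, so the counts describe the table and carry no test.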
